A study of Mus musculus with 2 samples.

Results

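A set of 9 genes of retinoid and aldehyde metabolism was followed in single-cell RNA-Seq of the mouse thoracic aorta: Adh1, Adh7, Aldh1a1, Aldh1a2, Aldh1a3, Rdh10, Rbp4, Dhrs3 and Cyp26b1. The members were the rows of the feature list that carry these symbols, and all 9 were found among 32287 features. The samples were thoracic aortas of 2 WT mice designated GFPiSMC, male C57BL/6J animals that carry Myh11-CreERT2 and the mT/mG reporter. Tamoxifen (1 mg per day, intraperitoneal, 5 days) was started when both were 3 weeks old, and the aortas were taken at 12 weeks. There is thus 1 group (n = 2), and every comparison is between cell types of the same aortas. The p-values and SEs rest on the spread between these 2 animals. It was estimated in 1 fit over all types, or over all subsets of a type, with information shared among genes. The Myh11 promoter restricts recombination to smooth muscle cells (SMCs), each library came from 1 aorta, and the sort kept live single cells whatever their GFP.

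Retinol reaches cells bound to the carrier RBP4 and is oxidized to retinal by retinol dehydrogenases such as RDH10, with some contribution of the cytosolic alcohol dehydrogenases ADH1 and ADH7. Retinal is then oxidized irreversibly to retinoic acid by the retinaldehyde dehydrogenases ALDH1A1, ALDH1A2 and ALDH1A3, which also clear other aldehydes. DHRS3 reduces retinal back to retinol, and CYP26B1 hydroxylates retinoic acid for removal, so these enzymes lower its level. Retinoic acid made in a cell can act through nuclear receptors in a neighbor, and the Aldh1a2 enzyme is well known in mesothelium and epicardium of the embryo.

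The libraries held 8947 and 6263 cells with 47009780 and 30919996 unique molecular identifiers (UMIs), each UMI standing for 1 captured RNA molecule. After filters and removal of doublets, 6543 and 4609 cells remained, with median UMI counts of 5671 and 5392. From markers, 7 cell types were named, and clustering did not use the members or the other listed genes of the pathway. Every defining marker was found in its own type. They were SMCs (2209 and 1617 cells), fibroblasts (1653 and 1136), endothelial cells (785 and 729), mesothelial cells (274 and 156), myeloid cells (908 and 571), lymphocytes (622 and 363) and erythroid cells (23 and 13). Unnamed clusters held 69 and 24 cells, and 13 of these, all from aorta 1, were led by Xist although the animals were male. They enter no value below other than totals over all analysed cells. The barcode lists of both libraries shared 18 barcodes, 10 of them among analysed cells. Levels are given as CPM, the UMIs of a gene per 1000000 UMIs of all genes in the summed cells of a type in 1 aorta, with no correction for gene length, so they are compared between cells and not between genes. Intervals and limits on these sums cover counting error only.

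The members divided between layers of the wall. Adh1 and Adh7 were highest in endothelial cells, Aldh1a1 and Aldh1a2 in mesothelial cells, Aldh1a3 and Rbp4 in fibroblasts, and Dhrs3 in myeloid cells. Cyp26b1 was higher in endothelial cells and fibroblasts than in SMCs, while Rdh10 was low in every type. SMCs, the most numerous cells, held at most 20 UMIs per aorta of Adh1, Adh7, Aldh1a1, Aldh1a2 and Aldh1a3, out of 16572617 and 11650971 UMIs of all genes.

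**Figure D1:**
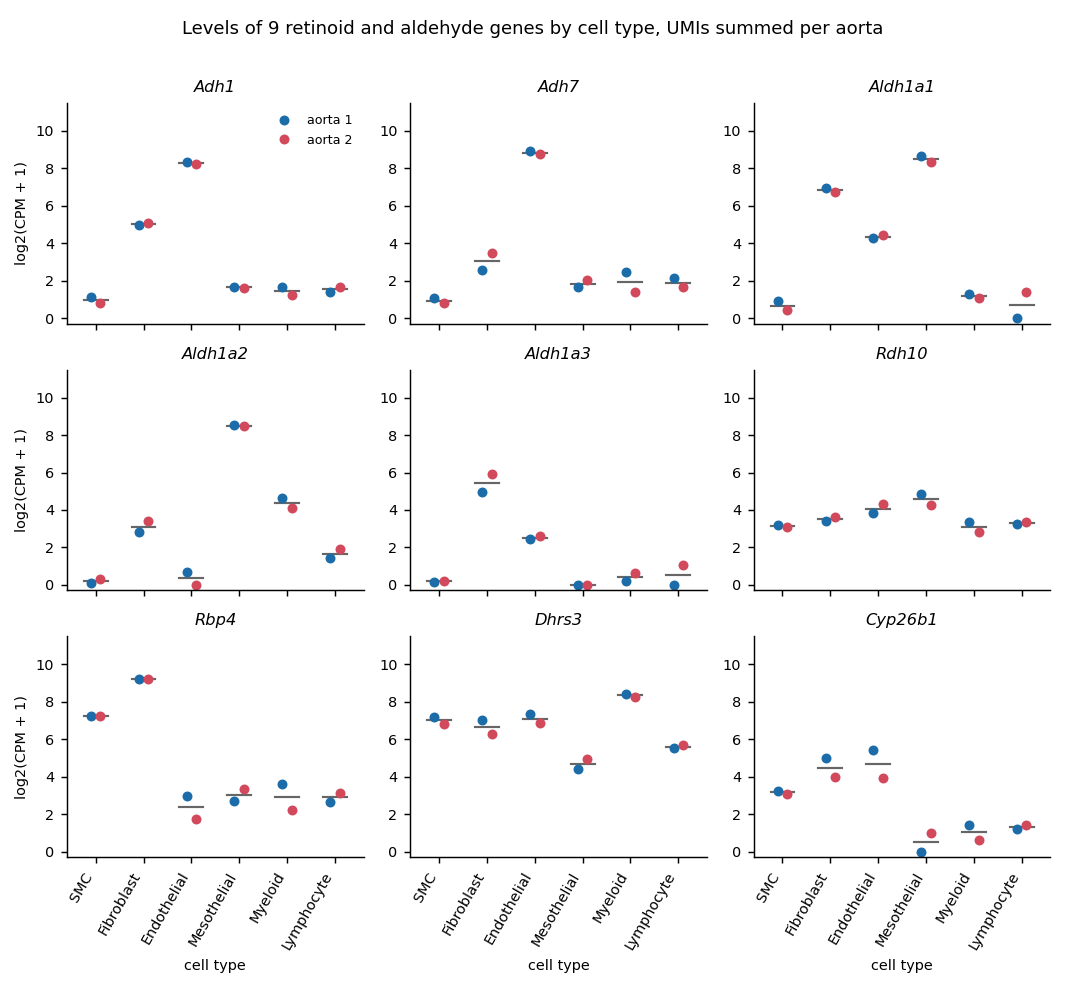
Level of each of the 9 genes (vertical axis, log2(CPM + 1)) in 6 cell types (horizontal axis), with 1 point per aorta and a bar at the mean of both. Adh1 and Adh7 peak in endothelial cells, Aldh1a2 in mesothelial cells, and the points of both aortas lie close together for most pairs of gene and type.

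Rbp4 encodes the plasma carrier of retinol, made mainly in liver and also in mesenchymal cells. Its level was 586 CPM in aorta 1 and 598 CPM in aorta 2 in fibroblasts, and 151 and 153 CPM in SMCs. Both aortas thus gave nearly the same value within a type, and fibroblasts and SMCs did not overlap. The difference of 1.87 ± 0.15 on the log2 scale (SE from the shared fit, n = 2 aortas per type) passed edgeR's quasi-likelihood test at an adjusted p of 1.06e-09. In the 4 remaining larger types the level was low, between 2.38 CPM in endothelial cells of aorta 2 and 11.3 CPM in myeloid cells of aorta 1. Fibroblasts supplied 69.8% and 69.4% of all Rbp4 UMIs, and SMCs 28.9% and 29.9%.

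RNA that escapes from 1 cell into the droplets of others gives low counts of abundant genes everywhere, so the Rbp4 level in SMCs was set beside that of the 6 defining markers of fibroblasts. The SMC level was 25.7% and 25.6% of the fibroblast level. The 6 markers stood in SMCs at 0.293% to 7.63% of their fibroblast level in aorta 1 and at 0.287% to 7.65% in aorta 2, so Rbp4 in SMCs lay above all of them. Rbp4 in endothelial cells, at 1.18% and 0.398% of the fibroblast level, lay within or below the range of the same markers there (0.713% to 3.21% and 0.553% to 2.81%).

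SMCs were not alike. Rbp4 stood at 201 CPM in both aortas in the largest SMC cluster (1124 and 788 cells, leading genes Mylk4 and Cdh6). It stood at 14.9 and 47.7 CPM in the cluster led by Lrrtm3, Msx2 and Dlx6 (460 and 412 cells) and at 10.3 and 2.68 CPM in the cluster led by Pln, Notch3 and Kcna5 (62 and 44 cells). The Mylk4 cluster was therefore above both in each aorta, and differences between SMC clusters were not tested. A further cluster led by Cyb5r3 and Optc (446 and 275 cells, with a low median of 1754 UMIs per cell) stood at 172 and 232 CPM.

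The promoter of Rbp4 is shown because the motif of a TATA box lies just before the start of this RefSeq transcript, which was the case in no other window of a member. The window lies inside the span of the GENCODE gene (chr19:38116629-38125281), past its annotated start. It is chr19:38124762-38125061 of GRCm38.p6 (RefSeq, minus strand), which runs from 250 bases before the RefSeq start to 50 after it, and the letters TATAAA, in capitals, begin at position -28:
Rbp4: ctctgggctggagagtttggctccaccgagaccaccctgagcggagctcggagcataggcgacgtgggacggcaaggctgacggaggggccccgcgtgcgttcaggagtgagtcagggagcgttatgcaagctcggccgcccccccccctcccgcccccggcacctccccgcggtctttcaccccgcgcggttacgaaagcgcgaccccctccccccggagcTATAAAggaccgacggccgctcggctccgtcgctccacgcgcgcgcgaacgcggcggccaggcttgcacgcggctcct
TATAAA on the sense strand was present in 8.32% of 32851 promoters of this length. Cyp26b1 had the same letters at position -139. A second RefSeq window of Rbp4, at the GENCODE start (chr19:38125272-38125571), did not hold them, and 72% of the bases shown are G or C, against a median of 52.7% over all promoters.

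Adh1 and Adh7 encode alcohol dehydrogenases that oxidize ethanol and retinol. Both genes lie on the plus strand of chromosome 3, Adh7 at chr3:138217760-138233382 and Adh1 at chr3:138260991-138290698 (GRCm38, GENCODE M21), and each overlaps a gene on the opposite strand (0610031O16Rik and Gm16559). Whether counting used the strand is not given in the sources used here, so reads of the overlapping genes cannot be told apart.

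Adh1 reached 327 and 296 CPM in endothelial cells and 30.2 and 32.7 CPM in fibroblasts. In every other type it was at 2.22 CPM or less in both aortas, so endothelial cells stood apart in both aortas. Endothelial cells exceeded fibroblasts by 3.20 ± 0.11 on the log2 scale (adjusted p = 1.95e-15, in a contrast where 25.7% of 13962 genes were called) and SMCs by 7.997 ± 0.16 (adjusted p = 8.33e-19). Fibroblasts in turn exceeded SMCs by 4.80 ± 0.19 (adjusted p = 1.48e-14). Their level was 9.22% and 11.1% of that in endothelial cells, above the 6 endothelial markers, which stood in fibroblasts at no more than 4.05% and 3.03%.

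Adh7 reached 482 and 428 CPM in endothelial cells, and 5.04 and 10.3 CPM in fibroblasts. Here the endothelial cells supplied 93.3% and 91.9% of all UMIs, against 74.7% and 75.2% for Adh1. The excess over SMCs was 8.64 ± 0.24 on the log2 scale (adjusted p = 1.52e-17). Fibroblasts also exceeded SMCs (2.79 ± 0.38, adjusted p = 1.77e-06), but their Adh7 level was 1.05% and 2.40% of the endothelial level, within the range of the 6 endothelial markers in the same cells.

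Single cells showed the same contrast. After each cell was thinned to 1000 UMIs, 30.1% of endothelial cells in aorta 1 and 26.7% in aorta 2 held a UMI of Adh7, against 2 of 622 and 0 of 363 lymphocytes (0.322%, and at most 0.826% for the count of 0). Without thinning the endothelial shares were 54.6% and 45.8%. Of 785 endothelial cells in aorta 1, 383 held a UMI of Adh1, 429 one of Adh7 and 250 both. In aorta 2 these were 302, 334 and 184 of 729 cells.

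**Figure D2:**
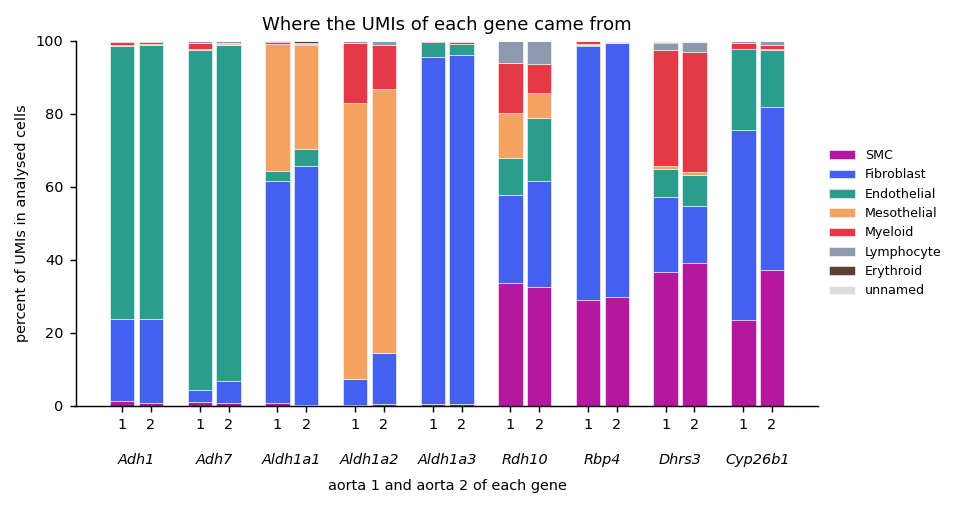
Share of the UMIs of each gene, in percent of all analysed cells (vertical axis), by cell type (colors), with 1 bar for aorta 1 and 1 for aorta 2 of each gene (horizontal axis). Adh7 and Aldh1a3 come almost wholly from endothelial cells and fibroblasts, respectively, whereas Rdh10 and Dhrs3 are spread over several types.

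Within the endothelium, 7 subsets were tested. They were named by leading genes as Nkx2-3/Isl1 (208 and 224 cells), Cyp4b1/Adra2a (121 and 118), Mal/Klk8 (117 and 94), Dcn/Emcn (132 and 73), Sema3g/Igf2 (113 and 87), Mmrn1/Lyve1 (57 and 83) and Gpihbp1/Car4 (37 and 50). Mmrn1 and Lyve1 are known from lymphatic vessels, Gpihbp1 and Car4 from capillaries, and Sema3g from arteries. The Dcn/Emcn subset was led by Dcn, a fibroblast gene, and its 6 fibroblast markers summed to 2225 and 2139 CPM, against 658 and 515 CPM over all endothelial cells. Of the 6 members that could be tested, 5 varied among subsets in an edgeR F test, against 31.1% of 7663 genes, and Rdh10 did not pass (adjusted p = 0.366). Aldh1a1 reached the level set by the gene filter in both aortas only in the Dcn/Emcn subset, so its call adds no support to this count. Without that subset Aldh1a1 and Rdh10 could not be tested. Of the 4 members left 3 passed, and Dhrs3 lost its call (adjusted p = 0.168, against 0.0306).

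Adh7 was highest in the Cyp4b1/Adra2a subset, at 1113 and 969.7 CPM. This subset exceeded each of the other 6, the next being Nkx2-3/Isl1 at 578 and 376 CPM (1.16 ± 0.26 on the log2 scale, adjusted p = 0.00548, with 2.45% of genes called in this contrast). The lymphatic gene subset Mmrn1/Lyve1 was at 130.2 and 35.5 CPM, and the capillary gene subset Gpihbp1/Car4 held 0 and 7 UMIs. Among the other 4 subsets, from Nkx2-3/Isl1 down to Dcn/Emcn, no neighbors in the order of levels differed beyond their spread.

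Adh1 was ordered otherwise. It was highest in the Dcn/Emcn subset (545 and 553 CPM) and the Nkx2-3/Isl1 subset (467 and 378 CPM), which did not differ beyond their spread (0.43 ± 0.19, adjusted p = 0.264). In the Sema3g/Igf2 subset it fell to 69.8 and 52.8 CPM, a difference of -2.74 ± 0.27 log2 units from Nkx2-3/Isl1 (adjusted p = 3.19e-09, 8.05% of genes called). Adh7 was 0.13 ± 0.28 log2 units higher in Nkx2-3/Isl1 than in Sema3g/Igf2, not beyond the spread (adjusted p = 0.858). The Sema3g/Igf2 cells thus had Adh7 at 331 and 566 CPM with little Adh1. Whether the 2 genes differ from each other in this contrast was not tested. Between Dcn/Emcn and Cyp4b1/Adra2a, Adh7 differed by -1.81 ± 0.28 log2 units (adjusted p = 2.63e-05, 3.54% of genes called) and Adh1 0.99 ± 0.20 higher (adjusted p = 0.0015).

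**Figure D3:**
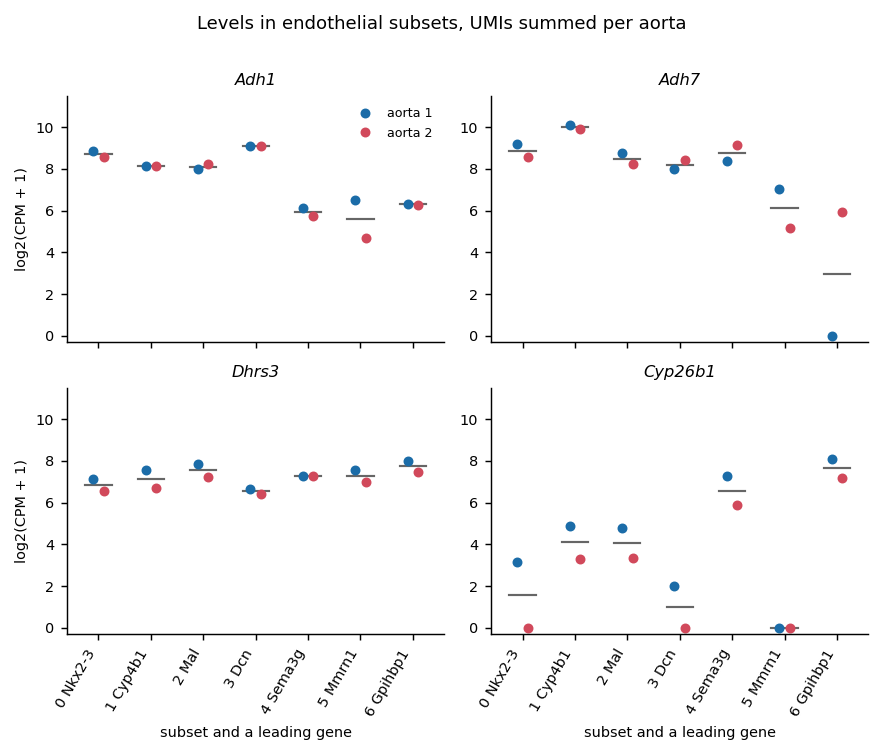
Level of 4 genes (vertical axis, log2(CPM + 1)) in 7 endothelial subsets, each labeled with a leading gene (horizontal axis), with 1 point per aorta and a bar at the mean. Adh7 peaks in the Cyp4b1 subset, Adh1 in the Dcn and Nkx2-3 subsets, and Cyp26b1 in the Gpihbp1 and Sema3g subsets.

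The promoters of both genes are shown because both genes had their highest level in endothelial cells. The Adh7 window is chr3:138217523-138217822, and capitals mark TGAACT, at position -221. It reads AGTTCA on the opposite strand, a hexamer bound by retinoic acid receptors. The RefSeq window of Adh1 is chr3:138277335-138277634, inside the span of the GENCODE gene, and both are on the plus strand of GRCm38.p6 (RefSeq).
Adh7: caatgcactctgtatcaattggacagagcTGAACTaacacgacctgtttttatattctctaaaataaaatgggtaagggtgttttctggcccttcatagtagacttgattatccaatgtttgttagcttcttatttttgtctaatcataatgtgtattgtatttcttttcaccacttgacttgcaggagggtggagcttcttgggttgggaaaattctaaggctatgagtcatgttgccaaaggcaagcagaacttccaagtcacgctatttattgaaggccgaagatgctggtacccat
Adh1: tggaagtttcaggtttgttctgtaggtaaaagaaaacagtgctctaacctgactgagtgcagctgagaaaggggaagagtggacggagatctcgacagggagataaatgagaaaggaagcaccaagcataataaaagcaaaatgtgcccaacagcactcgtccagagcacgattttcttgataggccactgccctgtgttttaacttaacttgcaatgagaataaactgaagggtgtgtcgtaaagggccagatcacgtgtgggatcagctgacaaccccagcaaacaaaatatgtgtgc
The hexamers AGGTCA or AGTTCA, read on both strands, were present in 27.7% of all promoters, so a match is common. Neither window held a direct repeat of the hexamer with a spacing of 2 or 5 bases, found in 0.0396% of promoters for each spacing, nor did any window of the 7 members that had an entry.

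Rdh10 encodes the retinol dehydrogenase that the embryo depends on for retinal. Its level lay between 6.12 CPM (myeloid cells, aorta 2) and 28.3 CPM (mesothelial cells, aorta 1) in the 6 larger types. No neighbors in the order of levels differed beyond their spread. Among lymphocytes, the cluster led by Rag1 and Dntt (121 and 74 cells) held 19 of 25 and 11 of 17 Rdh10 UMIs. It stood at 60.6 and 43.3 CPM, and this was not tested. Mesothelial cells, at 28.3 and 18.2 CPM, exceeded fibroblasts (9.60 and 11.4 CPM) by 1.04 ± 0.26 on the log2 scale (adjusted p = 0.00309) and SMCs (8.33 and 7.55 CPM) by 1.32 ± 0.26 (adjusted p = 2.29e-04). A small cluster led by Cxcl13 (19 and 5 cells) was placed in mesothelium by the naming rule, although its fibroblast markers summed higher than its mesothelial ones. It had 22 and 8 Rdh10 UMIs, 101 and 114 CPM, against 8.64 to 18.5 CPM in the other 3 mesothelial subsets, and was too small to test. It thus held 22 of 51 mesothelial UMIs in aorta 1 and 8 of 18 in aorta 2. In this cluster the 6 fibroblast markers summed to 12905 and 11144 CPM and the 6 mesothelial markers to 1679 and 1227 CPM, against 4903 to 9367 CPM of the latter in the other 3 subsets, and their part in the result was not tested. Without the cluster, mesothelial Rdh10 was at 18.3 and 10.9 CPM, in aorta 2 below the 11.4 CPM of fibroblasts, and neither call held. The log2 difference was then 0.39 from fibroblasts (adjusted p = 0.350) and 0.67 from SMCs (adjusted p = 0.0757), so that both calls rest on 19 and 5 cells.

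Dhrs3 encodes a retinal reductase whose transcript is known to rise with retinoic acid. It was detected in all types and was highest in myeloid cells, at 345 and 309 CPM. Endothelial cells (163 and 114 CPM), SMCs (145 and 113 CPM) and fibroblasts (130.1 and 75.6 CPM) followed. Myeloid cells exceeded endothelial cells by 1.52 ± 0.20 on the log2 scale (adjusted p = 9.27e-07, 36.1% of genes called), whereas endothelial cells and SMCs did not differ beyond their spread (adjusted p = 0.672). SMCs were above fibroblasts in both aortas, by 0.42 ± 0.19 on the log2 scale (adjusted p = 0.0644), and by 0.44 (adjusted p = 0.00403) with the aorta as a replicate block. Mesothelial cells had the lowest level of the larger types, 20.6 and 29.4 CPM, a log2 difference of -2.31 ± 0.31 from fibroblasts (adjusted p = 2.48e-06) and of -2.73 ± 0.30 from SMCs (adjusted p = 1.07e-07).

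Clusters within types differed in Dhrs3, described here without a test. The largest myeloid cluster, led by Cd209f, Folr2 and Cd163, genes of resident macrophages, stood at 478 and 432 CPM, and the S100a8/S100a9 cluster, genes of neutrophils, at 60.6 and 61.0 CPM. Among lymphocytes, the cluster led by Rag1 and Dntt, genes of immature lymphocytes, stood at 204 and 138 CPM, against 9.19 and 7.67 CPM in the cluster led by Ms4a4b and Nkg7. In SMCs the Lrrtm3/Msx2 cluster was lowest (58.7 and 55.1 CPM), and the Mylk4 cluster had 176 and 138 CPM.

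The 3 retinaldehyde dehydrogenase genes each had their own pattern. Aldh1a1 was at 407 and 323 CPM in mesothelial cells and 125 and 106 CPM in fibroblasts, 18.5 and 20.6 CPM in the endothelium, and 0.905 and 0.343 CPM in SMCs. Of the 59 and 52 endothelial UMIs, 40 and 28 were in the Dcn/Emcn subset, at 60.2 and 74.4 CPM, and 3 of the other 6 endothelial subsets held none. Without that subset the endothelium was at 7.52 and 11.2 CPM, and its log2 difference from SMCs was 3.49 (adjusted p = 2.14e-06) without the subsets led by genes of other cells, against 4.59 with them. The fibroblast markers of that subset were given above, and their part in the endothelial level was not tested. Mesothelial cells exceeded fibroblasts by 1.48 ± 0.14 on the log2 scale (adjusted p = 1.61e-08), and fibroblasts exceeded endothelial cells by 2.69 ± 0.19 (adjusted p = 1.04e-10) and SMCs by 7.28 ± 0.24 (adjusted p = 3.62e-16). Because fibroblasts were more numerous, they supplied 60.9% and 65.2% of the UMIs and mesothelial cells 34.7% and 28.5%. Erythroid cells held 8 and 7 Aldh1a1 UMIs in 23 and 13 cells (51.4 and 74.6 CPM). The near-identical paralog Aldh1a7 had at most 1 UMI per aorta in each type, and how reads shared by both were counted is not given in the sources used here. Genes on the opposite strand overlap Aldh1a1 (C730002L08Rik and Gm6684) and Aldh1a2 (Gm48124), and the limit on strand given for Adh1 and Adh7 holds for both.

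Aldh1a2 was highest in mesothelial cells, at 367 and 351 CPM. Myeloid cells followed with 23.7 and 16.4 CPM and fibroblasts with 6.01 and 9.55 CPM, while SMCs held 1 and 3 UMIs and endothelial cells 2 and 0. Mesothelial cells exceeded myeloid cells by 3.76 ± 0.17 on the log2 scale (adjusted p = 1.11e-13, 38.5% of genes called) and fibroblasts by 5.38 ± 0.18 (adjusted p = 2.31e-15). Against SMCs the pooled ratio was 2549 (95% exact interval 992 to 9373, counting error only). Mesothelial cells, 274 and 156 in number, supplied 75.6% and 72.3% of the Aldh1a2 UMIs.

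Of 274 mesothelial cells in aorta 1, 221 held a UMI of Aldh1a1, 208 one of Aldh1a2 and 177 both, and in aorta 2 these were 115, 119 and 92 of 156. After thinning to 1000 UMIs per cell, 31.4% and 30.1% of mesothelial cells held a UMI of Aldh1a2, against 1 of 622 and 0 of 363 lymphocytes. Across the 3 mesothelial subsets that could be tested, led by Calcb and Myl7 (132 and 43 cells), Krt14 and Dsg2 (75 and 50) and Pappa and Igf1 (48 and 58), Aldh1a2 stood at 460.2 and 536 CPM, 371 and 355 CPM, and 321 and 273 CPM. Aldh1a1 stood at 473 and 484, 429 and 304, and 263 and 245 CPM. Both varied among subsets in the F test (adjusted p = 0.0366 for Aldh1a2 and 0.0176 for Aldh1a1), where 6.61% of 6019 genes did. In the same order the 6 mesothelial markers summed to 9366 and 9367, 7506 and 8278, and 4903 and 5116 CPM, and the 6 fibroblast markers to 4210 and 4048, 4889 and 6890, and 5932 and 7686 CPM, and their part in the result was not tested. Neither dehydrogenase gene passed with cells of at least 5000 UMIs, with doublets kept or with DESeq2.

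Outside mesothelium, Aldh1a2 was highest in 2 small groups of cells. One was the myeloid cluster led by Cd209a, Clec4b1 and Ccr2, genes known from dendritic cells and monocytes (74 and 52 cells), with 123 and 47 UMIs, 153 and 92.8 CPM. The other 5 myeloid clusters stood at 0 to 18.1 CPM. Over all myeloid cells the level was 6.46% and 4.67% of that in mesothelial cells, above all 6 mesothelial markers, which stood there at no more than 0.232% and 0.319%. The other was a fibroblast subset led by Chrm2 and Mab21l2 (81 and 22 cells), with 32 of 62 and 26 of 66 fibroblast UMIs, 62.2 and 151 CPM. The other 5 subsets led by no genes of other cells stood at 0 to 10.2 CPM, with 10 and 12 UMIs in a subset led by Dact2 and Dpp4 and 8 and 13 in one led by Comp and Hmcn2, and a group of 7 and 2 cells, too small to test, held 4 and 1. The reporter transcript eGFP stood in that subset at 1018 and 768 CPM, against 40.4 to 86.0 CPM in 4 fibroblast subsets led by no genes of other cells, 411 and 169.9 CPM in a subset led by Dio2 and Lamc3, and 6698 and 6251 CPM in SMCs, and its part in the result was not tested. Aldh1a2 was called there above 6 of the 7 other fibroblast subsets, the nearest by 3.59 ± 0.60 on the log2 scale (adjusted p = 5.81e-05, 16.5% of genes called). It was not called above a subset of 17 and 17 cells led by T cell genes (adjusted p = 0.0908). It reached the level set by the gene filter in both aortas only in the Chrm2/Mab21l2 subset, so these calls are no separate support.

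The promoters of the pair expressed in mesothelium are shown because they contrast in base composition. The Aldh1a2 window is chr9:71215539-71215838 and the Aldh1a1 window is chr19:20601718-20602017, inside the span of the GENCODE gene (chr19:20492715-20643465). Both are on the plus strand, and neither held TATAAA or a hexamer of the kind above.
Aldh1a2: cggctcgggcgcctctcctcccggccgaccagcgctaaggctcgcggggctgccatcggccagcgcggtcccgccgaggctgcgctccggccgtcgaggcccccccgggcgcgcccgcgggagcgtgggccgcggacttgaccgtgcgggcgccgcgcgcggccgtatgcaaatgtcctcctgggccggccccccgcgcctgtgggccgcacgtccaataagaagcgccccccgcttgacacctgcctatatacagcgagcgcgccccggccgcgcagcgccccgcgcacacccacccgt
Aldh1a1: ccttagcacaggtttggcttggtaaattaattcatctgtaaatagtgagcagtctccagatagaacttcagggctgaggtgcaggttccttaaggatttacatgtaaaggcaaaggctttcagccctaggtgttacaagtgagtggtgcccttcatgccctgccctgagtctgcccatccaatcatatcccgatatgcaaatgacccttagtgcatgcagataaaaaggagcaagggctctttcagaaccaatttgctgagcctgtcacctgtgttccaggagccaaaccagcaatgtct
In the Aldh1a2 window 78% of bases were G or C, with 50 CpG pairs, against 47% and 1 CpG pair in Aldh1a1. The other RefSeq window of Aldh1a1, nearer the GENCODE start, had 43.3% and 3 CpG pairs.

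Aldh1a3 was a gene of fibroblasts, at 30.1 CPM in aorta 1 and 59.8 CPM in aorta 2. Endothelial cells had 4.39 and 5.16 CPM, SMCs 2 UMIs in each aorta, and mesothelial cells 0. With 3 counts as the limit that a count of 0 allows in each library, mesothelial cells were at least 18.0-fold and 19.7-fold below fibroblasts (adjusted p = 1.68e-07 in the fit). Fibroblasts exceeded endothelial cells by 3.33 ± 0.36 on the log2 scale (adjusted p = 2.32e-07), and SMCs by a pooled ratio of 296 (95% exact interval 115 to 1090.4). They supplied 94.8% and 95.6% of the UMIs.

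In fibroblasts 8 subsets could be tested, and 6 of them had no marker genes of another cell type in the lead: Comp/Hmcn2 (434 and 319 cells), Fmod/Pax1 (421 and 284), Dact2/Dpp4 (193 and 237), Dio2/Lamc3 (268 and 129), Tcf21/Lepr (125 and 51) and Chrm2/Mab21l2 (81 and 22). The other 2 were led by genes of other cells, Myh11 and Cnn1 of SMCs (107 and 75 cells, SMC markers summing to 23875 and 24031 CPM) and Cd3g and Trbc1 of T cells (17 and 17 cells). All 9 members varied among the subsets, against 46% of 9972 genes, and did so also without the subsets led by genes of other cells. Aldh1a2 reached the level set by the gene filter in both aortas only in Chrm2/Mab21l2, and Rdh10 only in Dact2/Dpp4. Adh7 reached it only in aorta 2 of Dact2/Dpp4 and Comp/Hmcn2. These genes entered the test through the subsets where they were highest, so their calls add no support to the count.

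Aldh1a3 was concentrated in the Dact2/Dpp4 subset, at 163 and 226 CPM. All other subsets stood at 24.9 CPM or less in both aortas, and Dact2/Dpp4 exceeded every one of the other 7, the next by 3.39 ± 0.25 on the log2 scale (adjusted p = 2.64e-10, 9.61% of genes called). This subset alone gave 70.0% and 87.0% of all Aldh1a3 UMIs of the analysed cells. Its cells made up 193 of 1653 fibroblasts in aorta 1 and 237 of 1136 in aorta 2, the aorta with the higher Aldh1a3 level over all fibroblasts. In the endothelium, 11 of 14 and 13 of 13 Aldh1a3 UMIs were in the Mal/Klk8 subset (21.2 and 40.1 CPM), too few for the gene to be tested there.

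Rbp4 and Aldh1a1 were instead low in this subset. Rbp4 stood at 1091 and 1451 CPM in the Fmod/Pax1 subset and 1052 and 1434 CPM in the Dio2/Lamc3 subset, which did not differ beyond their spread (adjusted p = 0.829). In the Dact2/Dpp4 subset it was at 26.3 and 28.8 CPM, a log2 difference of -5.56 ± 0.27 from Fmod/Pax1 (adjusted p = 3.73e-14, 15.6% of genes called), and the Chrm2/Mab21l2 subset held 1 UMI in each aorta. Aldh1a1 was high in the Tcf21/Lepr (279 and 186 CPM), Fmod/Pax1 (172 and 166 CPM) and Dio2/Lamc3 subsets (172 and 141 CPM) and lowest in Chrm2/Mab21l2 (17.5 and 11.6 CPM). Neighbors among the first 3 did not differ beyond their spread (adjusted p = 0.1001 and 0.652). Between Dact2/Dpp4 and Fmod/Pax1, Aldh1a1 differed by -1.74 ± 0.18 log2 units (adjusted p = 2.97e-08).

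Dhrs3 was also low in the Dact2/Dpp4 subset, at 41.9 and 24.6 CPM, against 207 and 118 CPM in Comp/Hmcn2, a log2 difference of -2.30 ± 0.30 of Dact2/Dpp4 from Comp/Hmcn2 (adjusted p = 2.40e-06). Adh1, in contrast, was spread over several subsets whose order was not resolved. Among them were Comp/Hmcn2 (47.2 and 43.9 CPM), Fmod/Pax1 (45.9 and 39.6 CPM), Chrm2/Mab21l2 (33.0 and 58.1 CPM) and Tcf21/Lepr (24.2 and 55.9 CPM). The subsets thus carried different members, with Aldh1a3 in Dact2/Dpp4 cells, Aldh1a2 in Chrm2/Mab21l2 cells, and Rbp4 and Aldh1a1 highest elsewhere.

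**Figure D4:**
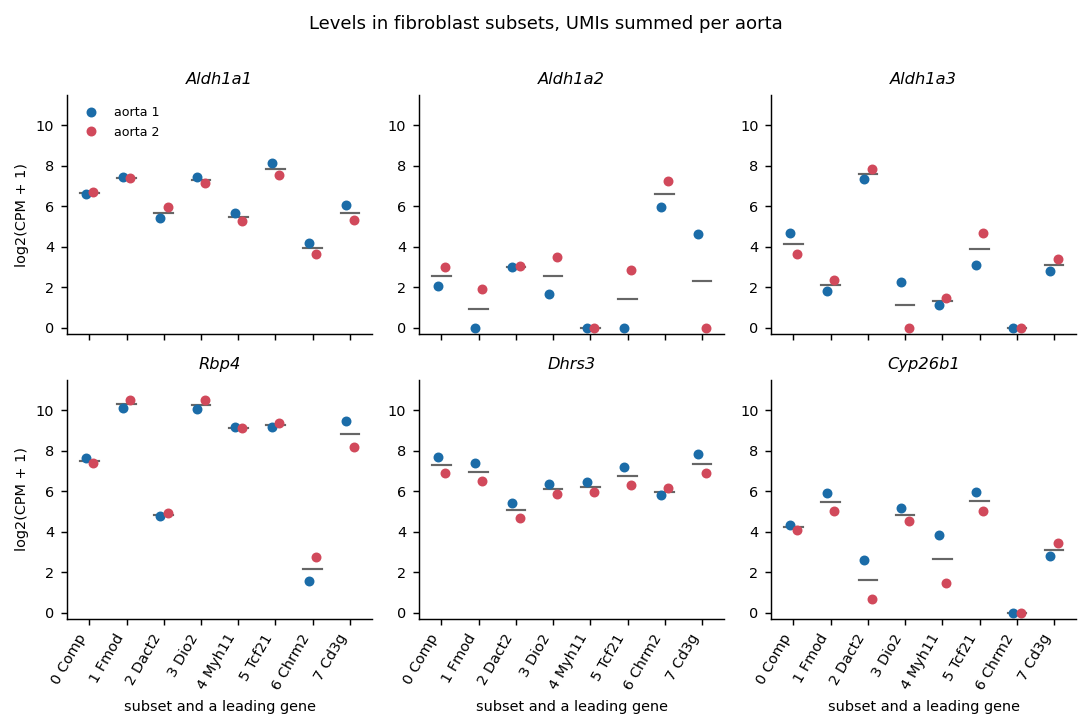
Level of 6 genes (vertical axis, log2(CPM + 1)) in 8 fibroblast subsets, each labeled with a leading gene (horizontal axis), with 1 point per aorta and a bar at the mean. Aldh1a3 peaks in the Dact2 subset and Aldh1a2 in the Chrm2 subset, where Rbp4 is lowest, and subsets 4 and 7 are led by genes of SMCs and T cells.

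Cyp26b1, whose product removes retinoic acid, was low and differed between aortas. Endothelial cells had 41.7 and 14.3 CPM, fibroblasts 30.4 and 15.1 CPM, and SMCs 8.51 and 7.38 CPM. Mesothelial cells held 0 and 1 UMI. Endothelial cells and fibroblasts did not differ beyond their spread (0.19 ± 0.33, adjusted p = 0.673), and both exceeded SMCs (1.64 ± 0.35, adjusted p = 4.72e-04, and 1.44 ± 0.31, adjusted p = 4.83e-04). The endothelial excess was 0.76 and did not pass with cells of at least 5000 UMIs (adjusted p = 0.166). Fibroblasts exceeded mesothelial cells by a pooled ratio of 67.5, with a wide 95% exact interval of 12.1 to 2673 that rests on the single mesothelial UMI.

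Within the endothelium, Cyp26b1 was at 276 and 144 CPM in the Gpihbp1/Car4 subset and 154 and 57.5 CPM in the Sema3g/Igf2 subset. No other endothelial subset was above 28.7 CPM in aorta 1 or 9.26 CPM in aorta 2. The first 2 did not differ beyond their spread (adjusted p = 0.298), and Sema3g/Igf2 exceeded the next, Cyp4b1/Adra2a, by 2.54 ± 0.49 on the log2 scale (adjusted p = 5.81e-04, 5.31% of genes called). Both high subsets had low Adh1, but so did Mmrn1/Lyve1 (91.2 and 24.8 CPM), which held no Cyp26b1 UMI in either aorta. In the Gpihbp1/Car4 subset the 7 myeloid markers summed to 1079 and 1348 CPM, against 30.4 to 110.3 CPM in the other 6 endothelial subsets, and the 4 platelet markers to 323 and 102 CPM. Their part in the Cyp26b1 level was not tested. In fibroblasts Cyp26b1 was at 62.1 and 31.1 CPM in Tcf21/Lepr and 59.9 and 31.3 CPM in Fmod/Pax1, and the Dact2/Dpp4 subset held 7 and 1 UMIs (a log2 difference of -4.17 ± 0.51 from Fmod/Pax1, adjusted p = 4.75e-07). The Chrm2/Mab21l2 subset held none.

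Counted over the contrasts, 7 of the 9 members were called between fibroblasts and SMCs (adjusted p under 0.05 and a log2 difference over 1), all higher in fibroblasts, against 25.6% of 13962 genes in either direction. Rdh10 (0.29 ± 0.20, adjusted p = 0.251) and Dhrs3 (-0.42 ± 0.19, adjusted p = 0.0644) were not called. The median log2 difference was 2.79 over the members and 0.07 over all genes. Between endothelial cells and SMCs 6 were called (all genes 30%): Adh1, Adh7, Aldh1a1, Aldh1a3 and Cyp26b1 higher in endothelial cells, and Rbp4 lower (-5.16 ± 0.27 log2 units, adjusted p = 1.23e-12). The Aldh1a3 call there rests on 14 and 13 endothelial UMIs against 2 and 2, and was lost with cells of at least 5000 UMIs (adjusted p = 0.0698).

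Between mesothelial cells and SMCs 6 members were called (all genes 29.3%), 3 higher in mesothelial cells (Aldh1a1, Aldh1a2 and Rdh10) and 3 lower (Rbp4, Dhrs3 and Cyp26b1). Between mesothelial cells and fibroblasts all 9 passed (all genes 24.6%), with the same 3 higher and the other 6 lower. The median log2 difference of the members was -2.31 there, also with Aldh1a3 at its bound, against -0.13 over all genes. Without the Cxcl13 cluster, 5 members were called against SMCs and 7 against fibroblasts. Of these calls 2 were near the threshold. Adh7 (adjusted p = 0.0407) rests on 4 and 3 mesothelial UMIs and did not pass with doublets kept (adjusted p = 0.117) or without the Cxcl13 cluster (adjusted p = 0.0702), and Rdh10 did not pass without the Cxcl13 cluster, as given above.

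The rest of the pathway was read from a list of 62 further genes, of which 61 were in the feature list and 42 could be tested. Between fibroblasts and SMCs 11 were higher and 2 lower in fibroblasts (all genes 15.8% and 9.83%). They included 3 of 9 receptor and coregulator genes, the retinoic acid receptors Rara (34.7 and 33.9 CPM against 9.90 and 8.24, 1.81 ± 0.14) and Rarg (1.44 ± 0.12) and the corepressor Nrip1 (1.55 ± 0.10). Cyp1b1, an oxidase that can convert retinol, was at 8.57 and 11.3 CPM in SMCs where fibroblasts had 166 and 180.1 CPM and endothelial cells 245 and 259 CPM.

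Between mesothelial cells and fibroblasts 12 of the 42 were higher and 10 lower in mesothelial cells (all genes 10.4% and 14.2%). Dhrs9, a retinol dehydrogenase gene, was at 50.5 and 41.5 CPM in mesothelial cells and 2.72 and 2.03 CPM in fibroblasts (4.06 ± 0.30, adjusted p = 5.97e-10). Fabp5, which binds fatty acids and retinoic acid, was at 1389.8 and 1497 CPM against 28.6 and 38.2 (5.25 ± 0.15, adjusted p = 1.08e-16). Of the receptor and coregulator genes tested none was higher in mesothelial cells, and Rara, Rarb, Rarg and Nrip1 were lower, with log2 differences of -1.93 to -1.14. Of 5 tested genes known to respond to retinoic acid, Tgm2 and Stra6 were higher and Rarb and Nrip1 lower, so this list did not move 1 way.

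Between endothelial cells and SMCs 9 were higher and 7 lower in endothelial cells (all genes 16% and 14%). Rbp7, a retinol binding protein gene, was at 41.1 and 102 CPM in endothelial cells and 0.121 and 0.601 CPM in SMCs (7.46 ± 0.55, adjusted p = 1.49e-10). Aldh3a1, a detoxifying aldehyde dehydrogenase gene, was at 27.0 and 32.9 CPM against 0.181 and 0.429 (6.37 ± 0.36, adjusted p = 2.20e-11). Between mesothelial cells and SMCs 10 were higher and 5 lower in mesothelial cells (all genes 15.3% and 14%). Aldh2, the mitochondrial enzyme that clears acetaldehyde, was at 272 and 339 CPM in mesothelial cells and 518 and 559 CPM in SMCs (-1.12 ± 0.14 log2 units, adjusted p = 7.02e-07).

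The genes most like each member were found by Pearson's r of log2(CPM + 1) over 44 sums (22 cell types and subsets in 2 aortas), which share libraries and differ in depth, so r is a description only. Adh1 was closest to Exoc3l4 (r = 0.915) and Ramp2 (r = 0.898), and Adh7 to Dhh (r = 0.897). Aldh1a2 was closest to Dhrs9 (r = 0.869), the retinol dehydrogenase gene named above, followed by Fxyd3 (r = 0.867). Aldh1a3 was closest to Pi16 (r = 0.797), Rbp4 to Ccn5 (r = 0.886), Aldh1a1 to Gpr39 (r = 0.828), Rdh10 to Parp4 (r = 0.863), Dhrs3 to Pros1 (r = 0.817) and Cyp26b1 to Vegfc (r = 0.740). Between members the highest value was that of Adh1 and Adh7 (r = 0.719), and the lowest that of Aldh1a2 and Dhrs3 (r = -0.57).

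Both aortas differed for some members over all analysed cells. Cyp26b1 was at 14.6 and 8.41 CPM and Dhrs3 at 159 and 122 CPM, and both were higher in aorta 1. Aldh1a3, at 7.94 and 15.7 CPM, was higher in aorta 2, while the ratio of aorta 1 to aorta 2 lay between 0.943 and 1.02 for Adh1, Adh7, Rbp4 and Rdh10. With 1 library per animal these differences have no replicate and were not tested.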

How the data were processed

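Single-cell RNA-Seq (Chromium 3ʹ v3.1) of thoracic aortas of 2 mice was analysed from UMI counts per gene and cell that the authors deposited. The counts came from Cell Ranger 4.0.0 per the file headers, on mm10 with both reporter genes per the labels, which also name Seurat 4.0. The libraries held 47009780 and 30919996 UMIs. The labels give 6278 and 4300 cells after filtering, set beside 6543 and 4609 here.

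Cells with more than 200 genes, 1000 to 25000 UMIs and under 10% mitochondrial UMIs were kept. Scrublet marked 201 and 89 doublets, which were removed. Cells were clustered by Leiden (scanpy 1.11.5; 2000 variable genes, 30 components, 15 neighbors, resolution 1, and 0.5 for subsets), without the members, the other listed genes, reporters and mitochondrial genes. Clusters were named from at least 3 detected markers, or left unnamed where UMIs were low and no own marker led or where markers of another class led. Counts were summed per aorta and cell type or subset (at least 10 cells in each aorta) and tested by edgeR 4.0.16 (TMM, filterByExpr, quasi-likelihood F test, Benjamini-Hochberg adjustment over all genes tested, called at adjusted p under 0.05 and, for pairs, a log2 difference over 1). The fit was tested on simulated data with known fold changes. The genes named were the members, the listed pathway genes, the leading genes of clusters, and for each member the genes with the highest correlation, of which the nearest are given. Some listed genes are not reported here by name. Promoters and motifs came from RefSeq, build GRCm38.p6.

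The members and lists were chosen with earlier results of these data known. All types of an aorta come from the same animal, so replicate numbers pair the sums. The deviations from the type means correlated between -0.0139 and 0.204 over 15 pairs of types (9201 genes), above 0.1 for 5 pairs. Alternatives were RLE scaling, no gene filter, a replicate block, cells of at least 5000 UMIs, doublets kept, other clustering resolutions, DESeq2 1.42.0 and leaving out each aorta. Chosen after seeing the data were leaving out subsets led by genes of another type and leaving out the Cxcl13 cluster.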

Additional observations from a re-analysis of the deposited data

How the results depend on the processing

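No fold change among called members changed sign under any alternative. Called among mesothelial subsets were 2 members, but 0 with cells of 5000 to 25000 UMIs, 0 with doublets kept, 0 with DESeq2 and 1 at subclustering resolution 1. Among endothelial subsets the count of 5 became 3 without the subset led by genes of another type, where fewer members could be tested. The other counts stayed within 1.5 times of their value. The cause of the other changes was not tested. With a replicate block the counts were as before, 7 for fibroblasts against SMCs, 9 for mesothelial cells against fibroblasts, 6 for each of the other contrasts with SMCs, and 9, 5 and 2 among fibroblast, endothelial and mesothelial subsets. Under the block Dhrs3 in fibroblasts against SMCs had an adjusted p of 0.00403 at a log2 difference of -0.44. RLE scaling moved the median of all genes by 0.26, 0.28 and 0.21 in fibroblasts, mesothelial and endothelial cells against SMCs. Rdh10 in fibroblasts then reached 0.55 (adjusted p = 0.025), and Dhrs3 in endothelial cells went from -0.11 to 0.11, not called in either. Without the Cxcl13 cluster, 5 members were called in mesothelial cells against SMCs and 7 against fibroblasts, with both Rdh10 calls lost. Of 396 fold changes under alternatives, 370 kept their side of the threshold or moved by less than the spread, 8 lost and 5 gained significance and 13 moved when an aorta was left out. Of 127 F tests 10 lost significance and of 59 counts of members 5 moved. Of 45 shares of UMIs from the leading type, 12 moved by more than the spread between aortas, for example with cells of 5000 to 25000 UMIs, that of Adh1 from endothelial cells from 75.0% to 64.9% and that of Rdh10 from SMCs from 33.0% to 41.5%. Of 27 shares of cells with a UMI, 21 moved, such as mesothelial cells with Aldh1a2, from 30.8% to 76.1% without thinning. Leaving out aorta 1, Rdh10 in mesothelial cells against SMCs was 0.95, where each type has 1 sum and there is no spread to test against.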
